A study of Mus musculus with 40 samples.

Results

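The clustered protocadherins were followed here as 192 ChIP-seq regions out of the 863771 regions of the series. A region was taken where its nearest annotated gene, within 200 kb, was a Pcdha, Pcdhb or Pcdhg gene. These were 30 of 81440 CTCF regions, 13 of 61724 NIPBL regions, 22 of 88793 RAD21 regions, 24 of 83467 SMC3 regions and 24 of 127769 WAPL regions. The histone marks added 45 of 240561 H3K27ac regions and 34 of 180017 H3K4me1 regions. All lay on chromosome 18 of the mm9 build, between 37086748 and 38026481, and the annotation named 59 genes there: 15 alpha, 22 beta and 22 gamma symbols.

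The cells were small pre-B cells, resting B cell precursors that rearrange the immunoglobulin light chain, sorted from mouse bone marrow. Wild type (WT) cells were set beside Brwd1-/- (KO) cells, which lack a chromatin reader with bromodomains and WD repeats. WT cells kept for 2 h with 126 nM oligomycin A, an inhibitor of the mitochondrial ATP synthase, formed the ATPneg group for NIPBL, RAD21, SMC3 and WAPL. Each group held 2 libraries, given as biological replicates, and there were 4 inputs. The labels give neither the age of the mice nor the part of Brwd1 that was deleted. WT and KO cells were not cultured, so oligomycin and the culture cannot be told apart. For the KO libraries of both histone marks the genotype label reads WT while title and description say knockout, and these were followed. Peak names inside the NIPBL KO 2 and NIPBL WT 1 lists carry the name of the other genotype. Those in the H3K27ac KO lists carry the name of H3K4me1 WT, and those in the H3K4me1 WT lists that of H3K27ac KO. All peaks of these histone lists lie inside the merged regions of the labelled mark, so the regions were built with the lists as labelled, and which name is right was not settled. For the NIPBL lists it was not settled either which name is right. Histone and NIPBL comparisons between KO and WT carry that doubt.

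Clustered protocadherins are cell surface adhesion proteins, best known for giving neurons individual identities. Most genes in the arrays are a variable exon with its own promoter, and many of these promoters hold a site for CTCF, a DNA-binding protein that stops cohesin. Cohesin, a ring that contains SMC3 and RAD21, is loaded and moved by NIPBL and released by WAPL, and CTCF and cohesin link protocadherin promoters to distant enhancers in neurons. The genes are mostly silent outside the nervous system.

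Reads in regions ranged from 3784506 (NIPBL KO 2) to 30496715 (WAPL KO 1) per library. For RAD21, SMC3 and NIPBL the KO libraries held fewer such reads (at most 7415143) than the WT libraries (at least 15416715). This total and genotype cannot be told apart, and the total is not the sequencing depth. CTCF WT 2, at 17055094 reads, stood apart from the other CTCF libraries, and RAD21 KO 1 and KO 2 differed from each other. Whether any of these libraries is mislabelled was not settled, and the CTCF and RAD21 differences between KO and WT carry that doubt. H3K27ac regions lay at the promoters of 7 of 10 pre-B marker genes, where the mean level in WT reached 27.2 CPM at Rag1. CPM are reads of a region scaled to the reads in all regions of that library, the unit of all levels here. Vpreb1, Vpreb2 and Igll1 had none. Of the other lists, 3 of 5 T cell, 3 of 5 myeloid, 2 of 5 erythroid and 2 of 5 neuronal markers had such a region, with WT means of at most 2.82 CPM. With genes lacking a region set to 0, the median WT mean was 2.19 CPM for the pre-B list. It was 0.467 for T cell, 0.598 for myeloid, 0 for erythroid and 0 for neuronal markers, and the ranges of the lists overlapped. A lower signal can come from fewer cells with a bound site or from less protein per cell, which bulk ChIP-seq cannot tell apart.

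CTCF was found at protocadherin promoters in these B cell precursors, above all in the gamma array. Of the 30 CTCF regions, 19 had a CTCF peak in KO 1, KO 2 or WT 1: 2 alpha, 5 beta and 12 gamma. Of these, 17 lay at the promoters of 17 genes, at most 0.384 kb from the annotated start, and the median length was 301 bp. The peak lists counted 15 of the 19 in KO 1, 18 in KO 2, 9 in WT 1 and 7 in WT 2, and 5 in all 4 lists. The 5 were the promoters of Pcdhgb6, Pcdhgb7, Pcdhga11 and Pcdhgb8 and a site beyond Pcdhgc5. The other 11 regions had a peak in WT 2 alone, and 3 of them lay at promoters.

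The site beyond Pcdhgc5 (chr18:38011627-38012371) starts 32.4 kb from the Pcdhgc5 start, inside the neighbouring gene Diap1. It held 43.9 and 53.1 CPM in KO, 37.1 CPM in WT 1 and 12.2 CPM in WT 2. Per length it averaged 49.1 CPM per kb, and 75.9% of all CTCF regions were at or below that density. The Pcdhgb8 promoter (chr18:37920943-37921484), which RefSeq lists as a transcribed pseudogene, held 18.9 and 21.9 CPM in KO, 16.4 CPM in WT 1 and 4.67 CPM in WT 2. The promoters of Pcdhgb6 and Pcdhgb7, genes for surface adhesion proteins of the gamma-B group, were alike, with 13.6 to 17.5 CPM in KO and WT 1 and 4.60 and 3.90 CPM in WT 2. WT 2 was the lowest library in each of these regions, and WT 1 was above both KO libraries at Pcdhgb7 and below both at the others. The densest region, at the Pcdhgb5 promoter (chr18:37890431-37890750), had 46.6 and 37.9 CPM in KO and 47.5 and 25.8 CPM in WT. Its WT input held 5078 reads per kb, against 21.5 reads per kb at the site beyond Pcdhgc5, and its part in the CTCF value was not tested.

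**Figure D1:**
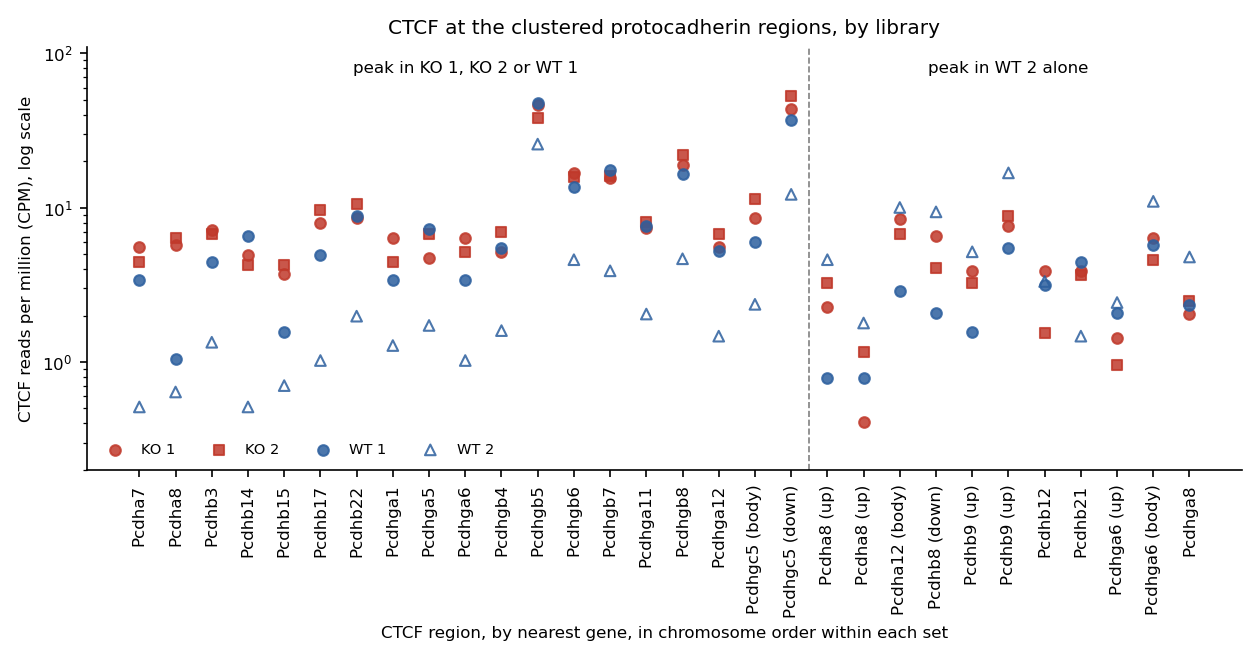
CTCF level (CPM, log axis) in the 4 libraries at the 30 CTCF regions, split by which peak lists hold them and ordered along the chromosome. WT 2 (open triangles) is the lowest library in 19 of the 19 regions on the left and the highest in 9 of the 11 on the right.

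No CTCF region was called between KO and WT. edgeR's quasi-likelihood test (Benjamini-Hochberg adjusted p under 0.05, used for all calls) called 0 of the 29 tested, DESeq2 called 0, and 5 had an unadjusted p under 0.05. Over all CTCF regions 0.0396% were called, 0.00792% higher and 0.0317% lower. The median log2 fold change was 0.77 for the protocadherin regions and -0.37 for all tested regions. All 19 regions with a peak in KO 1, KO 2 or WT 1 had a positive value, 0.21 to 2.93, but that choice leaves out regions found in WT 2 alone and so helps fix the sign.

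The Pcdha8 promoter (chr18:37152481-37152728) had the smallest p. It held 5.74 and 6.34 CPM in KO against 1.04 and 0.639 CPM in WT, so the groups did not overlap (log2 fold change 2.93, SE 0.79, adjusted p = 0.192). The Pcdhb15 promoter came next, with 3.69 and 4.23 CPM in KO and 1.57 and 0.703 CPM in WT (log2 fold change 1.96, SE 0.74, adjusted p = 0.311). The CTCF result turned on the WT library used. Without WT 1, 20 regions were called higher and 4 lower, where 38.3% and 45.8% of all CTCF regions were called. Without WT 2, 2 were higher and 0 lower, against 9.58% and 12.8% of all: the Pcdha8 promoter (log2 fold change 2.51, adjusted p = 0.00118) and the region in the body of Pcdha12 (1.39, adjusted p = 0.0146).

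SMC3 rose at 3 of these CTCF sites in KO cells. They were the only SMC3 regions of the clusters that overlapped any of the 19 sites. At the Pcdhgb8 promoter (chr18:37921075-37921443) SMC3 was at 11.2 and 10.9 CPM in KO and 0.718 and 0.813 CPM in WT. The log2 fold change was 3.83 (SE 0.27, adjusted p = 5.71e-04). Beyond Pcdhgc5 (chr18:38011652-38012323) it was at 23.8 and 24.4 CPM in KO and 3.65 and 1.5 CPM in WT. The log2 fold change there was 3.22 (SE 0.42, adjusted p = 0.002). In the body of Pcdhgc5, the last variable gene of the gamma array (chr18:38001026-38001200), the values were 3.58 and 6.56 CPM in KO and 0.718 and 0.25 CPM in WT (log2 fold change 3.37, SE 0.59, adjusted p = 0.00644). KO and WT did not overlap at any of the 3. The regions at the Pcdhgb8 promoter and in the Pcdhgc5 body had SMC3 peaks in KO lists and in no WT list. The region beyond Pcdhgc5 had a peak in both KO lists and in WT 1. The 19 sites also leave out regions found in CTCF WT 2 alone. How sites and regions entered thus helps fix the sign, and the genome share at CTCF sites carries the same limit. Over all SMC3 regions 22.1% were called higher (40.2% in either direction), and at CTCF sites chosen by the same rule outside the protocadherins 95.2% of 14787 tested SMC3 regions were. The first 2 calls held in each alternative run, and that in the Pcdhgc5 body was lost without KO 2 (adjusted p = 0.0859) and with input-subtracted counts (adjusted p = 0.094).

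RAD21, the partner of SMC3 in the ring, was high at these sites in KO 1 and not in KO 2. Beyond Pcdhgc5 (chr18:38011708-38012134) it was at 9.66 CPM in KO 1, 0.695 CPM in KO 2 and 1.79 and 1.29 CPM in WT (log2 fold change 1.74, SE 1.14, adjusted p = 0.24). At the Pcdhgb8 promoter the values were 3.22 and 0.556 CPM in KO and 0.626 and 0.669 CPM in WT (log2 fold change 1.54, SE 0.80, adjusted p = 0.17). The groups overlapped at both, and both regions were named after their values were seen. NIPBL, WAPL, H3K27ac and H3K4me1 had no protocadherin region that overlapped any of the 19 sites.

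RAD21 ATPneg 2 and both SMC3 oligomycin lists had peaks at more of the CTCF sites than any WT or KO list had, and RAD21 ATPneg 1 did not. RAD21 ATPneg 2 had a peak at 11 of the 19 sites (57.9%), 8 of them gamma and 3 beta, and RAD21 ATPneg 1 at 1. SMC3 ATPneg 1 and ATPneg 2 each had a peak at 6 sites (31.6%), 5 of which were gamma in either list. The corresponding counts were 0 and 0 for RAD21 WT, 1 and 0 for SMC3 WT, 2 and 0 for RAD21 KO, and 2 and 3 for SMC3 KO. In all, 12 sites had a peak in at least 1 of the RAD21 and SMC3 oligomycin lists, and the 2 alpha promoters had none.

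The sites shared by RAD21 ATPneg 2 and both SMC3 oligomycin lists numbered 4: the promoters of Pcdhgb6, Pcdhgb7 and Pcdhgb8 and the site beyond Pcdhgc5. Outside the protocadherins, 32150 CTCF regions met the same rule. There RAD21 peaks stood at 2.34% and 2.63% in WT, 28.8% and 3.33% in KO and 23.2% and 73.4% in oligomycin. For SMC3 the shares were 2.68% and 3.56%, 35.8% and 36.2%, and 73.3% and 71.4%. The protocadherin shares were lower than these in every KO and oligomycin list, a difference that was not tested. NIPBL and WAPL lists of every condition had 0 peaks at the 19 sites. The oligomycin libraries come here as peak lists without counts, so no level or test is given for them, and the lists differ in length (16375 peaks for RAD21 ATPneg 1 and 35784 for ATPneg 2).

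**Figure D2:**
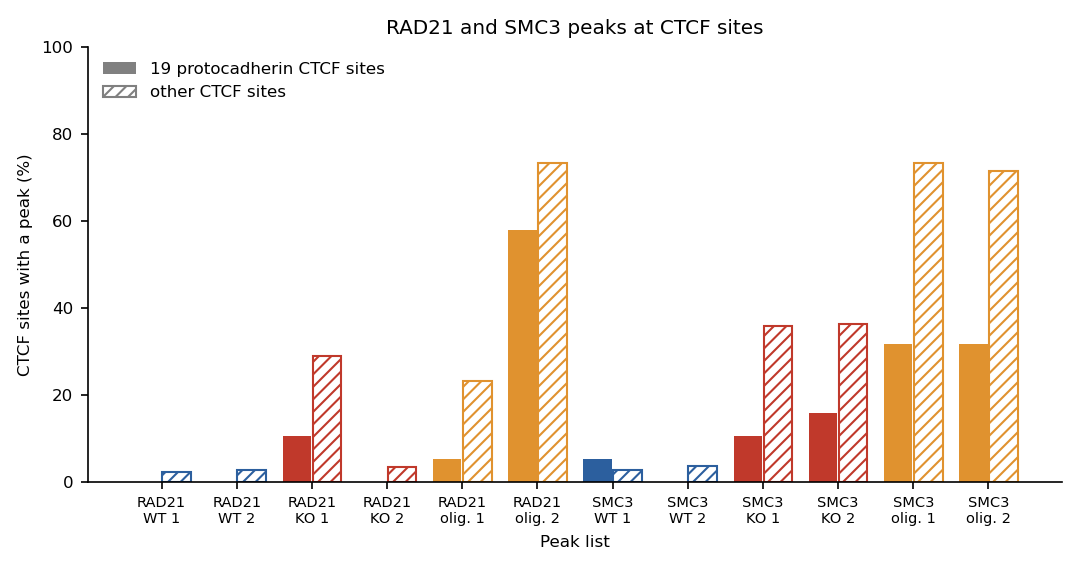
Share (%) of CTCF sites with a peak, for each RAD21 and SMC3 list, at the 19 protocadherin sites (filled bars) and at 32150 other CTCF sites (hatched bars). Filled bars reach 57.9% for RAD21 oligomycin 2 and 31.6% for both SMC3 oligomycin lists, and at most 5.26% in WT.

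Away from the CTCF sites, WT cells had long stretches of cohesin and its regulators in the alpha and beta arrays, and these were lower in KO. Regions over 1000 bp numbered 23 for RAD21, SMC3, NIPBL and WAPL together: 12 had an alpha gene nearest, 11 a beta gene and 0 a gamma gene. They merged into 5 intervals: upstream of Pcdha8 (chr18:37141415-37147561), in the body of Pcdha12 (chr18:37191578-37197400), downstream of Pcdhb8 (chr18:37525085-37529809), and 2 neighbours upstream of Pcdhb9 (chr18:37547860-37550057 and chr18:37550175-37554027). They were 2.20 to 6.15 kb long. The mean of the WT and KO inputs was at most 13.4 reads per kb in these long regions. All 23 regions had a negative log2 fold change, KO lay below WT without overlap in 22, and 18 were called lower. Each of the 23 held a WT peak of its protein and few held a KO peak, so how they entered helps fix the sign. They are regions of several proteins over the same 5 intervals and are not independent. Across the genome most long regions of RAD21, SMC3 and WAPL were also called lower in the same fit (shares below). The length class was set after the values were seen. Such stretches were not particular to these arrays. A longer one between beta and gamma has Slc25a2 as nearest gene and so is not counted here. SMC3 there (chr18:37789976-37796557) was at 56.85 and 59.02 CPM in WT and 17.64 and 18.32 CPM in KO (log2 fold change -1.69, SE 0.13, adjusted p = 5.75e-04).

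In WT, the Pcdha12 interval had the highest levels of these intervals, summed over its length. RAD21 there (5263 bp) was at 36.4 and 37.0 CPM in WT and 6.31 and 11.1 CPM in KO (log2 fold change -2.07, SE 0.35, adjusted p = 0.0433). SMC3 (5794 bp) was at 45.4 and 49.8 CPM in WT and 13.4 and 18.1 CPM in KO. Its log2 fold change was -1.60 (SE 0.19, adjusted p = 0.00135). WAPL (5819 bp) was at 27.7 and 29.7 CPM in WT and 9.13 and 10.2 CPM in KO (log2 fold change -1.57, SE 0.12, adjusted p = 0.00142). NIPBL (chr18:37192998-37196897) was at 19.5 and 18.9 CPM in WT and 10.6 and 9.74 CPM in KO. It was the only NIPBL region called (log2 fold change -0.92, SE 0.17, adjusted p = 0.0363). For each of the 4 proteins both WT libraries lay above both KO libraries.

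The interval next to Pcdhb9 behaved alike for SMC3 (chr18:37550176-37553955), with 27.8 and 31.9 CPM in WT and 10.2 and 10.6 CPM in KO (log2 fold change -1.51, SE 0.16, adjusted p = 0.00106). RAD21 (chr18:37550175-37553978) was at 27.5 and 25.4 CPM in WT and 5.77 and 11.5 CPM in KO (log2 fold change -1.61, SE 0.39, adjusted p = 0.0488). WAPL (chr18:37550176-37554027) was at 18.8 and 19.6 CPM in WT and 6.41 and 6.60 CPM in KO (log2 fold change -1.56, SE 0.12, adjusted p = 0.00148). Of the 3 proteins, RAD21 had the widest gap between its KO libraries.

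By protein, RAD21 had 0 higher and 5 lower calls among 22 tested regions (2.3% and 21.1% of all RAD21 regions, 23.4% together). The 5 were all long. SMC3 had 3 higher and 7 lower among 18 tested of 24 (22.1% and 18.1% of all), and 6 of the 7 were long. WAPL had 1 higher and 10 lower among 24 (13.1% and 27.6% of all, 40.7% together), and 6 of the 10 were long. NIPBL had 0 higher and 1 lower among 13 (0.995% and 0.63% of all, 1.63% together). Across the genome, 80.2% of 13717 tested long regions were called lower for RAD21, 77.3% of 14123 for SMC3 and 98.8% of 13756 for WAPL. The RAD21 share depends on the setting. Over all RAD21 regions 1954 were called higher and 17897 lower here, but 11202 and 3777 with DESeq2. Background scaling, no low-count filter, input-subtracted counts and a replicate block each called 0 in either direction. For NIPBL only 3.81% of 6845 tested long regions were called lower, in the fit used for all calls.

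Scaling changed the WAPL split, from 1 higher and 10 lower to 5 and 9 with library totals and 5 and 6 with background scaling. Over all 126089 tested WAPL regions, 16498 higher and 34829 lower became 27669 and 31674 with library totals. With background scaling they became 50454 and 24450, so the split moved across all WAPL regions as well. All 5 RAD21 calls were lost with background scaling, without the low-count filter, with input-subtracted counts, with a replicate block, and without WT 1 or WT 2, and DESeq2 called 1. Without KO 2, which leaves 1 KO library, RAD21 had more calls in both directions, both here and over all RAD21 regions. The NIPBL call was lost without any single library. Without KO 1 or without KO 2, WAPL and SMC3 had fewer calls, both here and over all their regions.

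**Figure D3:**
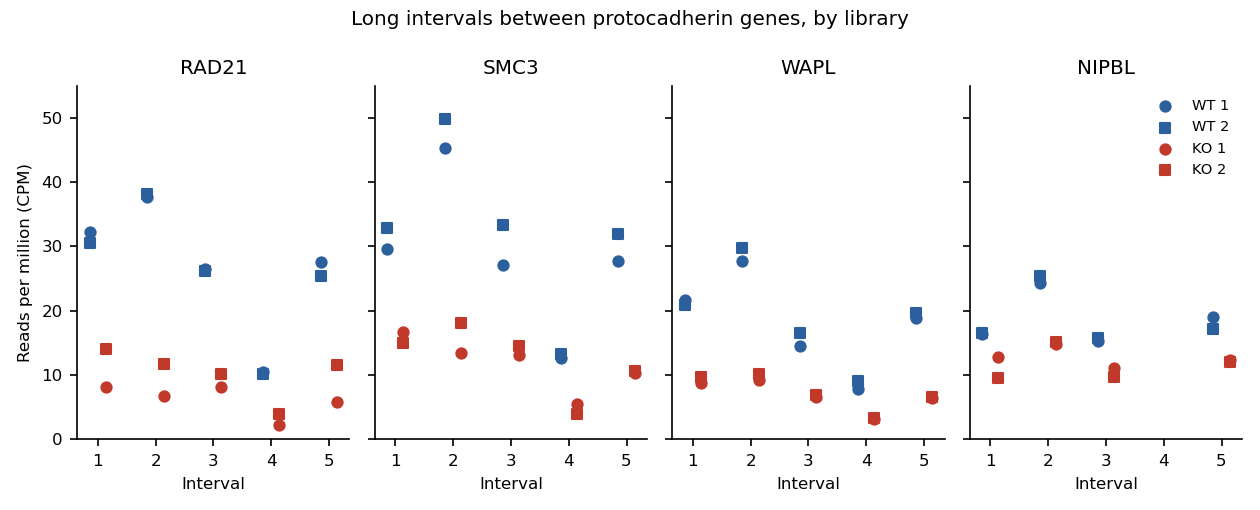
Levels (CPM) summed over each protein's regions in the 5 long intervals (1, Pcdha8; 2, Pcdha12; 3, Pcdhb8; 4 and 5, Pcdhb9), with circles for library 1 and squares for library 2. In interval 2, SMC3 is at 45.4 and 49.8 in WT and 13.4 and 18.1 in KO, and NIPBL has no region in interval 4.

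The peak lists of the other conditions were nearly empty over these intervals. The intervals were merged from long regions that each held a WT peak of its protein, and oligomycin lists did not help build them. The WT counts were thus largely fixed in advance, and the shares over all long regions carry the same limit. RAD21, SMC3 and WAPL peaks stood in 5 of 5 intervals in both WT lists. NIPBL peaks stood in 1 in WT 1 and 4 in WT 2. In KO, RAD21 KO 2 had peaks in 2 intervals, WAPL KO 2 in 1, and RAD21 KO 1, both SMC3, both NIPBL and WAPL KO 1 in 0. The 8 oligomycin lists had peaks in 0. Some lists were short: WAPL ATPneg had 3280 and 4623 peaks against 76389 and 81317 in WT, and NIPBL KO had 2333 and 2048 against 25979 and 55995 in WT. Over all long regions of each protein, 0.62% to 0.707% held a RAD21 oligomycin peak and 0.524% to 0.531% an SMC3 one, against at least 92.6% in each WT list of both proteins. CTCF WT 2 had peaks in all 5 intervals, while CTCF WT 1, KO 1 and KO 2 had none. In the interval beside Pcdhb9 (chr18:37550860-37553764) CTCF WT 2 was at 16.8 CPM, with 5.49 CPM in WT 1 and 7.59 and 8.84 CPM in KO (log2 fold change -0.47, SE 0.71, adjusted p = 0.595).

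**Figure D4:**
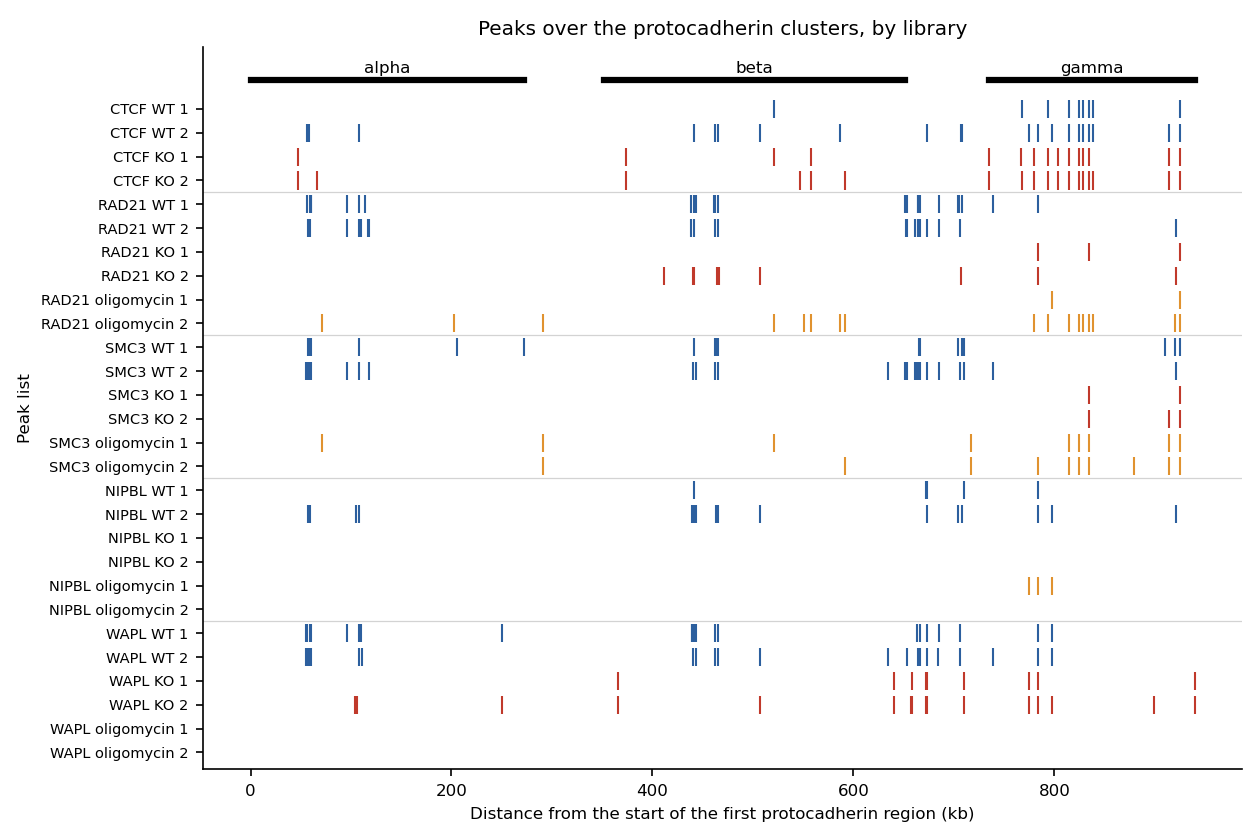
Peaks of the 28 CTCF, RAD21, SMC3, NIPBL and WAPL lists by distance (kb) from the first protocadherin region, with 1 tick per peak and bars for the span of alpha, beta and gamma regions. WT ticks (blue) of RAD21, SMC3 and WAPL lie in alpha, in beta and in the stretch between beta and gamma (9 of 21 for RAD21 WT 2, 11 of 27 for SMC3 WT 2), and 9 of 17 ticks of RAD21 oligomycin 2 (orange) lie in gamma.

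Counted against each protein's own regions, peaks in both replicates covered 6 of 24 SMC3 regions in WT, 2 in KO and 3 in oligomycin. For RAD21 the counts were 8, 1 and 1 of 22. For WAPL they were 10, 5 and 0 of 24, and for NIPBL 2, 0 and 0 of 13. CTCF peaks in both replicates covered 6 of 30 regions in WT and 14 in KO. Over all regions the shares in WT, KO and oligomycin were 31.9%, 11.2% and 20.2% for SMC3 and 33.3%, 7.82% and 8.02% for RAD21. They were 41.6%, 35.4% and 1.64% for WAPL and 33.1%, 1.81% and 12.9% for NIPBL, and for CTCF 20.2% in WT and 29.8% in KO. These counts move with the length of the lists. These regions were built from WT and KO peaks, so an oligomycin peak elsewhere is not counted.

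Some short sites were shared by many targets. The regions of all targets merged into 87 sites, of which 42 belonged to 1 target, 6 to 5 targets and 2 to 6 targets. The 6 include 4 of the long intervals. The site in the body of Pcdhga6 (chr18:37870305-37870532) was shared by CTCF, H3K27ac, H3K4me1, NIPBL, RAD21 and WAPL, and its input ran from 229.7 to 345.9 reads per kb. A site near Pcdhb12 (chr18:37593222-37593381) had the same 6 targets and 192.3 to 228.8 input reads per kb. WAPL had 9 of 24 regions with over 100 input reads per kb, among them its only higher call, downstream of Pcdhb22 (chr18:37727012-37727153). That region was at 4.30 and 2.25 CPM in KO and 1.16 and 1.09 CPM in WT (log2 fold change 1.54, SE 0.39, adjusted p = 0.0274). The part of the input in these values was not tested.

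H3K27ac, a mark of active promoters and enhancers, had a promoter region at 6 of the 59 genes. The WT mean of those 6 genes was 0.975 to 2.30 CPM. All 45 H3K27ac regions were short, 110 to 335 bp. Between KO and WT, 5 were higher and 1 lower (5.9% and 10.6% of all H3K27ac regions, 16.5% together). The split became 8 and 0 with library totals and 3 and 5 with background scaling, and DESeq2 called 1. Over all 235173 tested H3K27ac regions, 13880 higher and 24903 lower became 22208 and 15990 with library totals. They became 7422 and 50043 with background scaling, and 2459 and 10011 with DESeq2.

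The strongest rise in H3K27ac by adjusted p was upstream of Pcdhac2 (chr18:37276654-37276769), a C-type isoform gene at the end of the alpha array. It held 10.6 and 9.36 CPM in KO and 7.06 and 6.87 CPM in WT (log2 fold change 0.52, SE 0.10, adjusted p = 1.73e-05). Upstream of Pcdhgc4, a C-type gene of the gamma array (chr18:37970451-37970571), the values were 1.54 and 2.00 CPM in KO and 0.687 and 1.06 CPM in WT (log2 fold change 1.00, SE 0.26, adjusted p = 0.00225). KO was above WT in both regions. Regions upstream of Pcdhac1 (log2 fold change 0.77), in the body of Pcdhga12 (0.70) and at the Pcdhb2 promoter (0.63) were also higher. The region with the most reads, downstream of Pcdhb22 (chr18:37681402-37681736), was lower: 10.2 and 10.1 CPM in KO and 12.3 and 13.0 CPM in WT (log2 fold change -0.32, SE 0.09, adjusted p = 0.00363).

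H3K4me1, a mark of enhancers and of the flanks of promoters, had 1 higher and 1 lower call among 34 regions (6.44% and 9.98% of all H3K4me1 regions, 16.4% together). The Pcdhgc3 promoter (chr18:37966310-37966473) was at 0.972 and 1.1 CPM in KO and 0.188 and 0.538 CPM in WT (log2 fold change 1.44, SE 0.47, adjusted p = 0.0188). That call rests on few reads, 16 and 19 in KO and 4 and 14 in WT. Only 4.7% of all H3K4me1 regions were at or below its CPM per kb. A region upstream of Pcdhb7 (chr18:37497957-37498073) was at 3.95 and 3.60 CPM in KO and 5.83 and 5.08 CPM in WT (log2 fold change -0.52, SE 0.16, adjusted p = 0.00752). KO and WT did not overlap in either, and both calls were lost with DESeq2, without WT 1 and without KO 2.

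**Figure D5:**
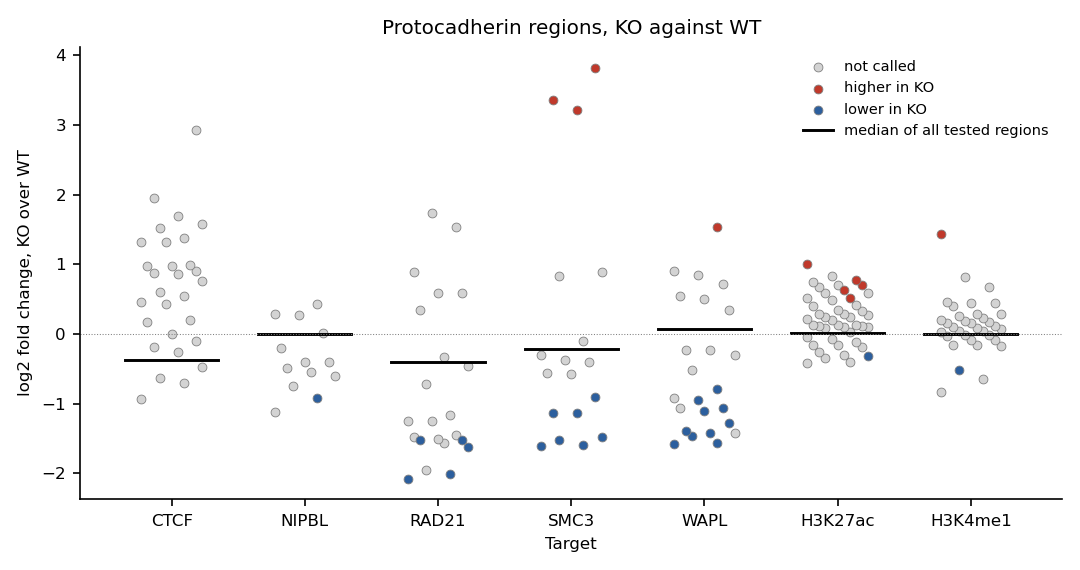
Log2 fold change (KO over WT) of each tested protocadherin region by target, with calls in red (higher) and blue (lower), and a black bar for the median of all tested regions. The 3 red SMC3 points lie at 3.22 to 3.83, and no CTCF point is called.

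Other genes gave a frame for these counts. Regions nearest to the 12 other protocadherins listed, which stand alone outside the arrays, gave 10 higher and 18 lower of 106 for SMC3, 4 and 31 of 123 for RAD21, and 22 and 62 of 179 for WAPL. The large cadherins Celsr1-3, Fat1-4 and Dchs1-2 gave 4 and 4 of 23 for SMC3, 0 and 9 of 36 for RAD21, and 11 and 10 of 72 for WAPL. Genes that flank the clusters gave 9 and 2 of 24 for SMC3, 0 and 1 of 20 for RAD21, and 3 and 5 of 19 for WAPL. For genes of CTCF, cohesin and other regulators of the clusters the counts were 14 and 2 of 28, 3 and 3 of 35, and 6 and 10 of 43. Median log2 fold changes for SMC3 were -0.48 in the protocadherin clusters, -0.51 in the other protocadherins, 0.15 in the large cadherins, 0.09 in the flanking genes and 0.73 in the regulators, against -0.22 over all tested regions.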

How the data were processed

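The members and lists were chosen with earlier results of these data known. Per the submitters' processing notes, BWA, Picard, MACS2, bedtools, featureCounts and edgeR were used with mm9; versions and settings are not given in the sources used here. The authors deposited raw read counts per merged region, input-subtracted counts (unit: a score here, as is the peak score of each list) and a rescaled signal; the signal table gave coordinates and gene annotation, and its values were not used in a test. The files hold 2 external input columns that were not used. Histone regions come without genotype input columns, so no input density is given for them.

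Counts of each target were fitted with edgeR 4.0.16 (R 4.3.3): filterByExpr, TMM, quasi-likelihood test, 2 KO against 2 WT, Benjamini-Hochberg adjustment over all regions tested. CPM uses TMM factors. Replicates are biological per the labels. The fit was tested on simulated data. Peaks were matched by 1 bp overlap. The grouping by CTCF peak lists and by a length over 1000 bp, and the crossed block, were chosen after the values were seen. Promoter, gene body, upstream and downstream follow the deposited annotation columns. Regions near near-identical protocadherin exons may share reads, since the handling of reads with several matches is not stated. Alternatives were DESeq2 1.42.0, library totals, background scaling (lowest 25% of regions), the deposited input-subtracted counts, all regions with at least 1 read, replicate number as a block, leaving each library out, regions within 50 kb, 50% overlap, a score of 2 times the lowest, and either replicate. Named regions are, per target, the first 4 higher and 4 lower calls by adjusted p, the 2 smallest p where under 2 were called, and the highest WT mean per cluster, of which the text prints a part. Plots used Python 3.11.15 with matplotlib 3.10.9.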

Additional observations from a re-analysis of the deposited data

Results flagged for a closer look

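Oligomycin peaks of RAD21 and SMC3 appeared at 5 places in the span of the clusters that held no region of any target, and so no WT or KO peak (0 in those lists). A place 19.3 kb from the nearest protocadherin region, which is assigned to Pcdhac2 (chr18:37377834-37378291), stood in 3 lists: RAD21 ATPneg 2, SMC3 ATPneg 1 and SMC3 ATPneg 2, with scores of 9.35 to 17.8. It lies between the last alpha region and the first beta region. A place 4.6 kb from a Pcdha8 region (chr18:37157326-37157545) stood in 2 lists, RAD21 ATPneg 2 and SMC3 ATPneg 1, with scores of 5.46 and 5.53 near the lowest score kept in any list (5.0). Places near Pcdhac2 (chr18:37288807-37288938) and Pcdhb15 (chr18:37637300-37637504) stood in 1 list, RAD21 ATPneg 2, and a place near Pcdhgc3 (chr18:37965868-37966095) in 1 list, SMC3 ATPneg 2. These libraries have no counts here, and the difference from WT was not tested.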

How the results depend on the processing

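Counts of called regions that moved by over 1.5 times were these; the cause was not tested. With library totals NIPBL had 5 calls. With background scaling RAD21 had 0 and H3K4me1 4. With DESeq2 NIPBL had 0, RAD21 1, H3K27ac 1 and H3K4me1 0. Without the filter RAD21 had 0. With input-subtracted counts NIPBL had 0, RAD21 0, SMC3 4, WAPL 7 and H3K4me1 1. Leaving out each library gave 0 to 24 calls for CTCF, 0 in each case for NIPBL, 0 to 13 for RAD21, 4 to 10 for SMC3, 2 to 16 for WAPL, 3 to 5 for H3K27ac and 1 to 2 for H3K4me1. Where this left 1 library in a group, it is assumed to vary like the other group. For each target the calls over all regions also moved with the setting. The 50 kb limit changed no count. Background scaling moved the median log2 fold change of all tested regions from -0.39 to 0.43 for RAD21, from -0.22 to 0.18 for SMC3, from 0.07 to 0.55 for WAPL, from -0.37 to 0.04 for CTCF, from 0.00 to 0.16 for NIPBL and from 0.02 to -0.17 for H3K27ac.

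With the replicate number as a block NIPBL had 2 calls and RAD21 0; the counts of CTCF (0), SMC3 (8), WAPL (11), H3K27ac (6) and H3K4me1 (2) stayed within 1.5 times. The labels do not say that a number marks a shared mouse or day, and differences between same-numbered libraries correlated at -0.193 for CTCF and -0.056 to 0.033 for the other targets. A block with the CTCF numbers crossed, added after seeing the data, gave 0 calls.

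Uncalled named regions changed sign as follows. CTCF in the body of Pcdha12 was at -2.00 with input-subtracted counts, and from -0.36 (without WT 1) to 1.39 (without WT 2) with a library left out. CTCF near Pcdhb9 was at 0.018 with background scaling, and from -0.975 (without WT 1) to 0.59 (without WT 2). CTCF at Pcdhgb5 ran from -0.16 (without WT 2) to 0.76 (without WT 1). SMC3 upstream of Pcdhga2 was at 0.024 with library totals, 0.29 with background scaling, 0.032 with DESeq2 and 0.53 with input-subtracted counts. H3K4me1 in the body of Pcdhac2 ran from -0.063 (without KO 2) to 0.234 (without KO 1). No called region that the rule names changed sign.

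For peaks in both replicates, the stricter score left CTCF with 3 regions in WT and 6 in KO, NIPBL with 0 in WT, RAD21 with 3 in WT and 0 in KO, SMC3 with 1 in KO, WAPL with 4 in WT and 1 in KO, H3K27ac with 21 in WT and 17 in KO, and H3K4me1 with 11 in WT and 9 in KO. Counting either replicate gave CTCF 21 in WT, NIPBL 13 in WT and 2 in oligomycin, RAD21 18 in WT, 8 in KO and 2 in oligomycin, SMC3 22 in WT, and WAPL 18 in WT and 11 in KO. An overlap of 50% changed none of these counts. Of the 24 SMC3 regions, 6 had too few reads for a test.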
